A study of Mus musculus with 2 samples.

Results

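Replication-dependent histone genes encode the H1, H2A, H2B, H3 and H4 proteins that package newly copied DNA. They were examined in an iCLIP experiment on Ago2, an Argonaute protein that holds microRNAs and is guided by them to target RNAs. Members were taken as the genes of a deposited table of predicted sites whose symbol starts with Hist1h, Hist2h, Hist3h or Hist4h, together with the enriched clusters that carry such a symbol or the region annotation Histone. This gave 35 histone genes of 15271 in the table, 392 distinct sites of 1619021, and 43 clusters of 6211. A further 10 histone genes were named by a cluster alone, so that 45 genes appear in either file. The clusters were selected on the authors' binomial p for reads of the tagged over the untagged library, so their enrichment is a description and carries no test.

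In iCLIP, cells are irradiated to crosslink proteins to the RNA they touch, the RNA is trimmed and immunoprecipitated, and its fragments are sequenced. Both cell lines were clonal mouse embryonic stem cells whose single Argonaute was human Ago2 under doxycycline control. TT-FHAgo2 carried FLAG-HA-hAgo2, and TT-Ago2 carried hAgo2 without a tag and served as the control for RNA recovered without the tag. Doxycycline was held at 0.1 µg/mL and raised to 2.5 µg/mL for 24 h in both, to reach wild-type Ago2 levels per the labels, and lysates passed through FLAG and then HA immunoprecipitation. With 1 library per group there was no replicate spread to test against, and no p-value was made here. Intervals are exact (Clopper-Pearson) 95% intervals that cover counting error only, since reads are not known to be independent molecules. Values at sites rest on 789000 reads of the tagged library. Untagged numbers were worked back from the authors' log2 enrichment, and the scaling and depth behind them were not given in the sources used here. No cluster had an implied number of 3, whereas 134 had 2 and 36 had 4, so they may not be plain read counts. Intervals that use them are to be read with this limit. All 10 listed embryonic stem cell markers were at 1 FPKM or more, with a median of 295 FPKM. Of 19 markers of primitive endoderm, trophectoderm, fibroblasts and neural cells, 10 were in the table, and 5 of these reached 1 FPKM.

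Histone messenger RNAs of this kind are made in S phase and usually lack introns and a poly(A) tail. They end instead in a short conserved stem-loop, which the stem-loop binding protein holds and near which the transcript is cut. A microRNA finds its target mainly through bases 2 to 8 of its own sequence, the seed, which pairs with a match in the target.

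A short sequence was shared by 17 of the 35 histone genes, of the H1, H2A, H2B and H3 classes, and was listed in none of the 6 H4 genes. Among the 8mers listed in the table, TTTTCAGA was found in 18 histone genes and CAGAGCCA in 17, whereas the next most frequent 8mer was found in 4. They overlap by 4 bases and join to 1 stretch of 12 bases, which covers the loop and the 3' arm of the histone stem-loop. Both 8mers belong to a set that extends none of the 50 microRNA 7mers of the table. The set serves here as control 8mers, although the file does not name it so. Members of it, TTTTCAGA and CAGAGCCA among them, match seeds of other microRNAs, so it is not a set without seed matches. The 12 bases were chosen after the sites had been seen. Only listed sites could be seen, so a gene without the 12 bases, in H4 or another class, was not shown to lack a stem-loop. Hist1h3i, for example, lists TTTTCAGA without CAGAGCCA. They are shown in capitals, with the bases that overlapping listed sites add, for genes with many, few and no reads there:
Hist1h3b: TTTTCAGAGCCAcccaca
Hist1h3a: TTTTCAGAGCCAcacacga
Hist1h1e: TTTTCAGAGCCAcccacaac
Hist3h2a: TTTTCAGAGCCAcccacaacctca
Hist1h1a: TTTTCAGAGCCAccaa
Hist1h2bj: TTTTCAGAGCCAcgcacaa

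The deepest 3' UTR site of any histone gene lay elsewhere, in Hist1h4i, where a listed 6mer, in capitals, runs into a control 8mer:
Hist1h4i: TCTTCCaatgcta

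Sequences of mature microRNAs whose seed matches the listed 6mers with most histone reads are given for orientation, from RefSeq (GRCm38.p6 table), with seed bases 2 to 8 in capitals. The file names sites by sequence alone, so each stands for all microRNAs of its seed:
mmu-miR-17-5p: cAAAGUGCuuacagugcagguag
mmu-miR-7a-5p: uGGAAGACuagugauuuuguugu
mmu-miR-15a-5p: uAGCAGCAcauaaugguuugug
mmu-miR-379-5p: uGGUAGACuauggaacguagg
mmu-miR-298-5p: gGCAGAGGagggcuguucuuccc

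Ago2 clusters were found on all 5 histone classes. Of the 35 histone genes in the site table, 21 were named by a cluster (60.0%, 42.1 to 76.1), beside 16.7% of all genes in the table. All 4 H1 genes and all 7 H3 genes of the table had a cluster, compared with 3 of 7 H2A, 5 of 11 H2B and 2 of 6 H4 genes. Counting the genes of the cluster file alone, 31 histone genes were named. The region annotation was Histone for 39 of the 43 clusters and the flank of a gene for the other 4. Of the 43, 40 lay on mm9 chromosome 13, 2 on chromosome 6 (Hist4h4) and 1 on chromosome 3 (Hist2h2bb). Many histone genes are near-identical copies, and the treatment of reads that map to several places was not given in the sources used here, so the split of reads between copies is uncertain throughout.

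The 43 clusters held 450 tagged reads against an implied untagged number of 12, a ratio of 37.5 (21.3 to 73.1). All other clusters held 58960 against 1529, a ratio of 38.6. Histone clusters had a median of 8 tagged reads (range 5 to 27), and other clusters a median of 7. The untagged number was 0 in 35 of 43 histone clusters (81.4%, 66.6 to 91.6) and in 85.6% of the others. Clusters of 5 or 6 reads pass the authors' threshold only against 0. Where clusters held 7 or more reads, 20 of 28 histone clusters (71.4%) and 74.3% of others had an untagged number of 0. Histone clusters had a median width of 53 nt (interquartile range 35 to 59.5), and others 43 nt (36 to 53).

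**Figure D1:**
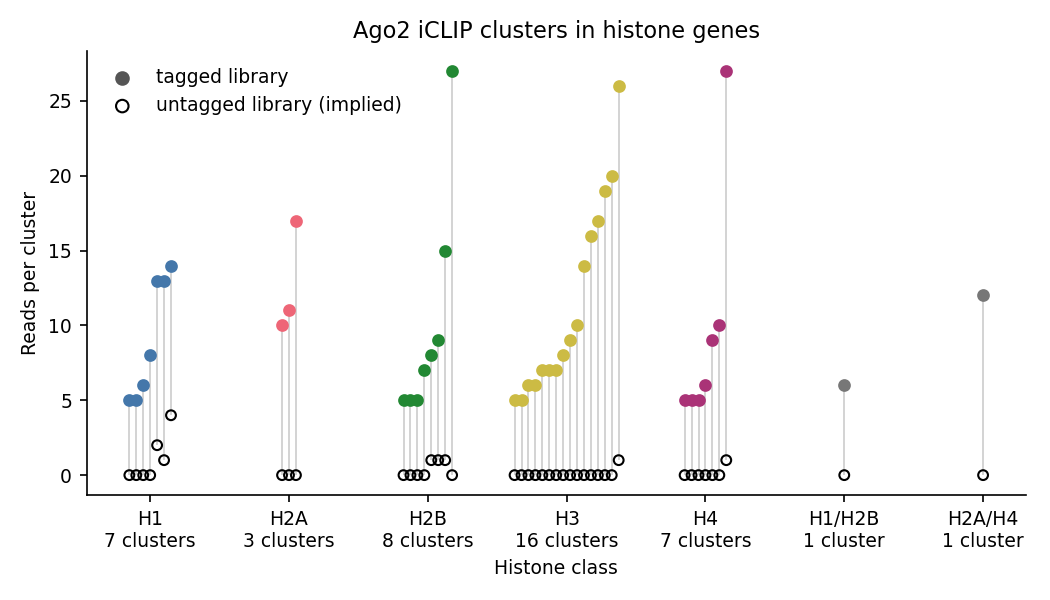
Reads per cluster (vertical axis) for each of the 43 histone clusters, grouped by histone class. Filled points are the tagged library and open points the untagged number implied by the authors' enrichment values, joined by a line for each cluster. H3 has the most clusters, 16, and the largest untagged numbers, 2 and 4, are in H1.

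H3, which forms the core of the nucleosome with H4, held the most clusters: 16 on 9 genes, with 182 tagged reads against 1. Of these 9 genes 6 had at least 2 clusters, compared with 1 of 5 H1, 0 of 3 H2A, 2 of 6 H2B and 2 of 5 H4 genes with a cluster of their own. Hist1h3g had 3 clusters of 16, 19 and 20 reads, each against 0 (at least 5.33-fold, 6.33-fold and 6.67-fold, with a floor of 3 counts per cluster). They lay on chromosome 13 from 23627278 to 23627335, 23627426 to 23627492 and 23627727 to 23627788, on the plus strand. The deepest H3 cluster was in Hist1h3i, with 26 reads against 1, from 21875206 to 21875281 on the minus strand. Hist1h3e had 17 and 8 reads in 2 clusters, Hist1h3c 14 and 7, Hist1h3f 10 and 5, Hist1h3h 7 and 7, and Hist1h3a 6 and 6, all against 0. In Hist1h3a, Hist1h3c, Hist1h3f and Hist1h3h the 2 clusters were 352 to 400 nt apart. Hist1h3b had 1 cluster of 9 reads, and Hist1h3d 1 of 5.

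H4 clusters numbered 7, with 67 tagged reads against 1. Hist1h4i carried 27 reads against 1, from 22132821 to 22132893 on the minus strand of chromosome 13. A second cluster, of 10 reads against 0, overlapped it. The remaining H4 clusters held 5 to 9 reads, in Hist1h4b (9), Hist1h4d (6), Hist1h4h (5) and Hist4h4 (5 in each of 2 clusters). The H4 genes Hist1h4a and Hist1h4j had no cluster but sites with up to 7 and 9 reads.

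H2B and H2A form the dimers that flank the H3-H4 core. Hist1h2bg had 27 reads against 0 (at least 9-fold), from 23663262 to 23663342 on the plus strand of chromosome 13. Hist1h2bk followed with 15 against 1, and Hist1h2bc had overlapping clusters of 9 and 8, each against 1. The H2B clusters of Hist1h2bb (5 and 5), Hist1h2bm (5) and Hist2h2bb (7) had an untagged number of 0. The H2A clusters lay in Hist1h2ab (17), Hist1h2ag (11) and Hist1h2ac (10), all against 0. In Hist1h2ac the listed peak height of 21 exceeded its 10 reads. This also held for 1 Hist1h1d cluster, with a height of 15 and 13 reads, and the file does not say how the numbers relate. A cluster of 12 reads against 0, annotated Genic+5kb, named both Hist1h2ak and Hist1h4k.

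The linker histone H1 had 7 clusters, with 64 tagged reads against 7. The whole untagged number of 7 came from the 3 clusters of Hist1h1d, with 13 against 2, 14 against 4 and 13 against 1. The clusters of Hist1h1a (5), Hist1h1b (5), Hist1h1c (8) and Hist1h1e (6) had 0. A further cluster of 6 reads overlapped that of Hist1h1e and also named Hist1h2be, so reads may be shared between them.

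Sites gave a measure over the whole table, with or without a cluster. A site here is a listed seed match or control 8mer, and a site has a read where at least 1 tagged read covered it. Of the 392 histone sites 102 had a read (26.02%, 21.7 to 30.7), against 9.22% of all sites in the table. From sites in other genes, matched for transcript region and for listed expression in steps of 0.5 log2 FPKM, 29.2 were expected, so the observed number was 3.49 times the expected (2.92 to 4.11). Matched by region alone, the ratio was 1.94. Expected numbers here and below rest on listed FPKM, and would be too low if that value understates histone RNA, which was not tested. Overlap with a cluster held for 30 histone sites (7.65%), beside 0.682% of all sites. Neighbouring sites share reads, and sites of 1 gene share its RNA. By class, H1 had a read at 32 of 64 sites (50%), H4 at 13 of 27 (48.1%), H3 at 22 of 54 (40.7%), H2A at 24 of 101 (23.8%) and H2B at 11 of 146 (7.53%). Matched for region and listed expression, the order differed. The ratio to the expected number was 7.66 in H3 (5.19 to 10.3), 5.75 in H4 (3.42 to 8.13) and 4.69 in H1 (3.49 to 5.88). It was 2.72 in H2A (1.81 to 3.80) and 1.30 in H2B (0.662 to 2.27), where the interval includes 1. Hist1h2be alone gave 72 of the H2B sites, of which 3 had a read. Without it H2B stood at 8 of 74 (10.8%, 4.78 to 20.2). The difference between classes was not tested, since these sites are not independent.

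The share was highest in the 5' UTR. There 15 of 33 histone sites had a read (45.5%, 28.1 to 63.6), compared with 8.83% in other genes, or 11.8 times the expected number. Coding sites had a read in 17 of 53 cases (32.1%), compared with 10.2%, or 6.33 times the expected. In the 3' UTR it was 70 of 306 (22.9%), compared with 14.5%, or 2.77 times. Coding sites came from 4 genes only, and most of those with a read lay in Hist1h1b (13 of its 21). The others were 3 of 10 in Hist1h2bl, 1 of 8 in Hist1h2bn and 0 of 14 in Hist1h2bp. The untagged library is known within clusters alone, so reads at sites outside a cluster have no control value.

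**Figure D2:**
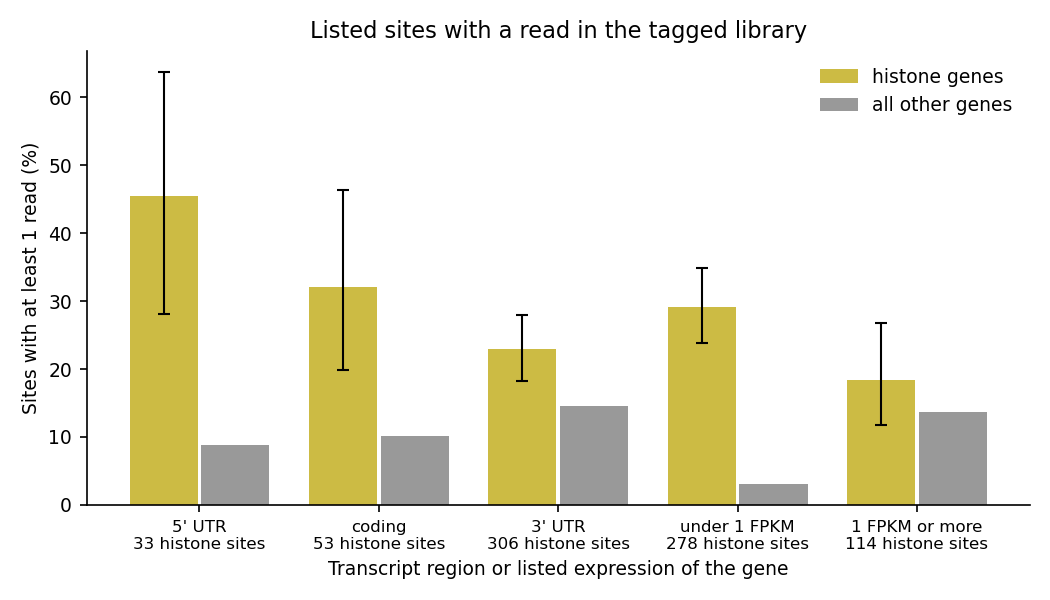
Share of listed sites with at least 1 tagged read (vertical axis, percent) by transcript region and by listed expression, for histone genes and all other genes. Error bars are exact 95% binomial intervals for the histone sites. The histone share is above that of other genes in each region, and furthest in the 5' UTR (45.5% against 8.83%) and under 1 FPKM (29.1% against 3.10%).

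Histone genes combined low listed expression with many reads. Their median was 0.361 FPKM (interquartile range 0.203 to 0.587), compared with 4.62 FPKM in other genes, and 5 of 35 reached 1 FPKM. A library made from RNA with poly(A) tails holds few transcripts without one. The preparation of the expression library was not given in the sources used here, so a low listed FPKM is not read as a low level of histone RNA. In bulk cells, a smaller share of cells in S phase and less histone RNA per cell also cannot be told apart. Of the 30 histone genes under 1 FPKM, 18 had a cluster (60.0%, 40.6 to 77.3), compared with 176 of 4343 other genes (4.05%). Of the 5 genes at 1 FPKM or more 3 had one (60.0%, 14.7 to 94.7), compared with 21.6% of others. Under 1 FPKM the sites with a read were 81 of 278 (29.1%) against 3.10%, or 5.69 times the expected number, and at 1 FPKM or more 21 of 114 (18.4%) against 13.6%, or 1.40 times (0.896 to 2.04).

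The 5 genes with the highest listed expression were Hist1h2bc (6.97 FPKM), Hist1h1c (4.55), Hist1h4i (2.16), Hist3h2a (2.08) and Hist3h2ba (1.85). Their highest reads at a site were 12, 9, 33, 2 and 0. Hist1h2bg, at 0.263 FPKM, had 33, and Hist1h3i, at 0.361 FPKM, had 30. In 19 of 35 histone genes the highest site exceeded the 95th percentile of other genes in the same FPKM stratum. In the strata under 0.5 FPKM that percentile was 2 or 3 reads.

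**Figure D3:**
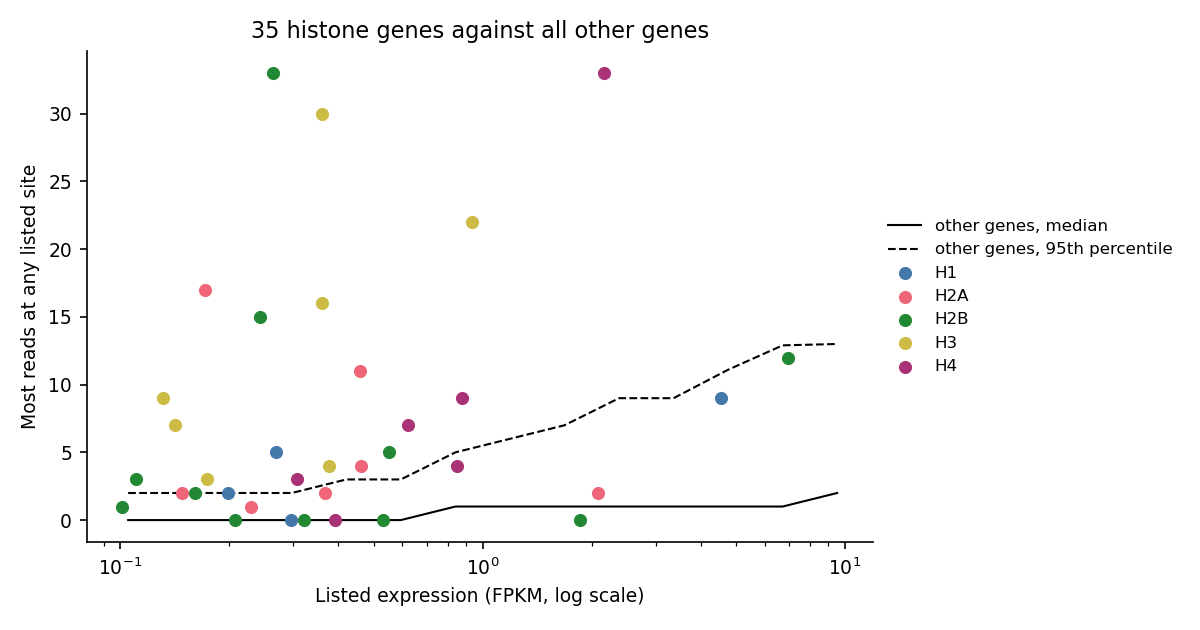
Most reads at any listed site of a gene (vertical axis) against listed expression in FPKM (horizontal axis, log scale) for 35 histone genes, coloured by class. The lines give the median and the 95th percentile of all other genes in strata of 0.5 log2 FPKM. Points lie above the upper line in 19 genes, with Hist1h2bg and Hist1h4i at 33 reads.

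Reads at 3' UTR sites differed by position relative to the stem-loop sequence. In the 17 genes that hold the 12 bases, sites upstream of them had a read in 9 of 10 cases (90.0%, 55.5 to 99.7) and sites that overlap them in 26 of 41 (63.4%, 46.9 to 77.9). Sites up to 50 nt past them had a read in 5 of 26 cases (19.2%, 6.55 to 39.4), and sites farther past in 8 of 167 (4.79%, 2.09 to 9.22). Relative to other genes of the same region and listed expression, sites up to 50 nt past the stem-loop, with those before it, had 7.13 times the expected number with a read (5.53 to 8.72). Sites more than 50 nt past had 0.581 times (0.254 to 1.12). Only 2 genes had reads beyond 50 nt: Hist1h1c at 7 of 28 sites, with 1 read each, and Hist3h2a at 1 of 41, with 2 reads. Both are among the 5 histone genes of at least 1 FPKM (4.55 and 2.08). Without Hist1h1c the far sites had a read in 1 of 139 cases (0.719%, 0.0182 to 3.94), or 0.106 times the expected. The positions draw on different genes. Hist1h3b, Hist1h3h, Hist1h2ag and Hist1h3a, with 9, 7, 5 and 4 reads over TTTTCAGA, had no site beyond 50 nt. The 8 genes with such sites had 0 to 3 reads over TTTTCAGA. Position and read depth of the gene therefore cannot be told apart in the pooled shares.

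**Figure D4:**
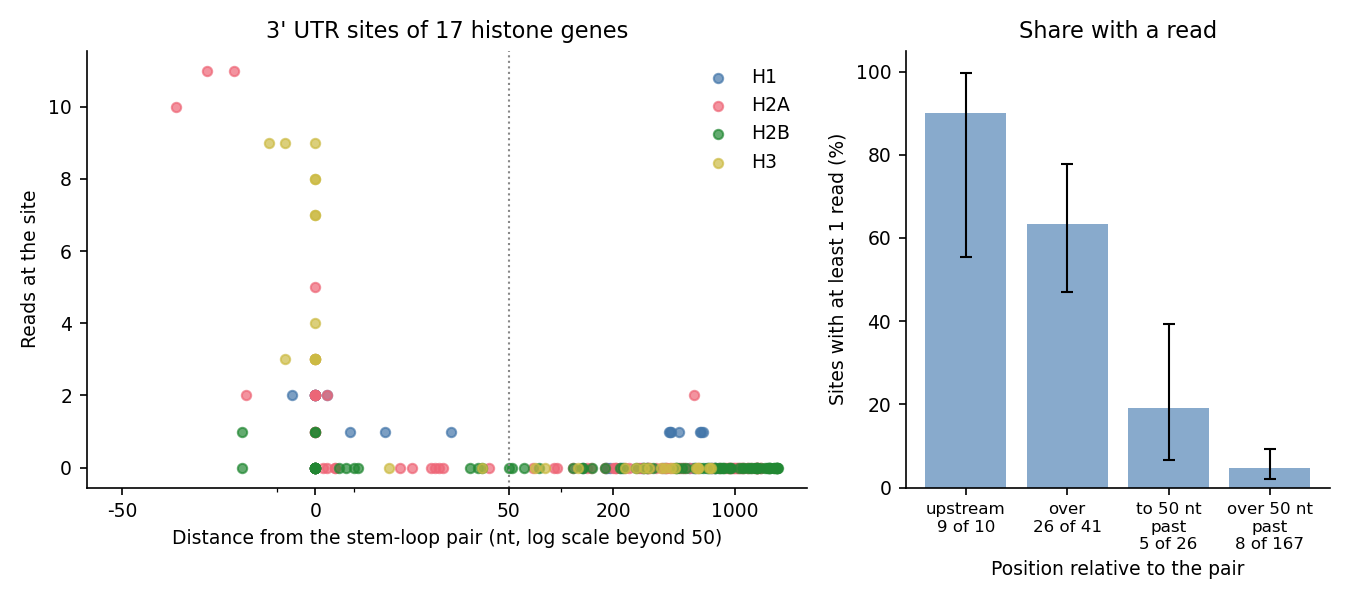
Left, reads at each 3' UTR site (vertical axis) of the 17 histone genes with the stem-loop sequence, against distance from it in nt (negative upstream, log scale beyond 50), coloured by class; the dotted line marks 50 nt past. Right, share of these sites with at least 1 read by position, with exact 95% intervals, falling from 9 of 10 upstream to 8 of 167 beyond 50 nt.

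The annotated 3' UTRs of 8 of these genes run past 50 nt, and those of Hist1h2be and Hist3h2a past 1 kb, to listed sites 1761 and 1419 nt beyond. In Hist1h2be, 59 sites lay beyond 50 nt and none had a read, and the 12 bases themselves had 1. Hist1h3d (16 far sites) and Hist1h2ai (18) also had none, with 3 and 2 reads at the 12 bases. In the 15 genes with 3' UTR sites in which the 12 bases are not listed, 22 of 62 3' UTR sites had a read (35.5%, 23.7 to 48.7). These genes may hold a stem-loop of another sequence, so their sites could not be placed relative to it. Among the 62 sites, those with a read were 1 of 13 in Hist1h2bc, 3 of 10 in Hist1h4i, 1 of 12 in Hist1h3e and 3 of 5 in Hist1h4a. In Hist1h2bc the 12 sites without a read lay 7586 to 7863 nt downstream of the site with reads. Genes with fewer sites varied, from 3 of 3 in Hist1h3g and in Hist1h4d and 2 of 3 in Hist1h4f to 0 of 3 in Hist1h2bp and 0 of 2 in Hist1h4n.

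On the stem-loop sequence itself, 11 of 17 genes had a read. Read numbers over TTTTCAGA were highest in the H3 genes Hist1h3b (9), Hist1h3h (7) and Hist1h3a (4) and the H2A gene Hist1h2ag (5). Hist1h3d and Hist1h2ab had 3, Hist1h1c, Hist1h1e and Hist1h2ai 2, and Hist1h2be and Hist3h2a 1. There were none in Hist1h1a, Hist1h2ae, Hist1h2bf, Hist1h2bg, Hist1h2bj and Hist3h2ba, which include 4 of the 5 H2B genes with the sequence. The same 8mer in 3' UTRs had a read at 12 of 19 histone sites (63.2%, 38.4 to 83.7) and at 131 of 1008 sites in other genes (13.0%, 11.0 to 15.2). For CAGAGCCA it was 11 of 17 (64.7%) against 87 of 827 (10.5%). The full 12 bases occurred in the 3' UTRs of 8 other genes, 1 of them with a read. Conservation differed as well: the median PhastCons score, which runs from 0 to 1, was 0.9999 over TTTTCAGA in histone 3' UTRs and 0.148 in other genes.

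Clusters of the 17 genes lay over or before the stem-loop. Of 12 clusters in 10 of them, 3 overlapped the 12 bases (Hist1h2ag, Hist1h3b and Hist1h3h), 9 lay upstream and 0 lay past. In Hist1h3a a cluster ended 2 nt before them. The other 8 lay more than 300 nt upstream. In Hist1h3h, where both ends carried a cluster, each had 7 reads. Hist1h2bg had 33 reads at its 5' UTR site and none at its 8 sites in the 3' UTR, and Hist1h3i had 30 at the 5' UTR site and 1 at its 3' UTR site. Both 5' UTR values exceed the tagged reads of the clusters there, 27 and 26. How reads at sites and in clusters relate was not given in the sources used here.

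Several 5' UTR sites with reads could be placed near the transcript start. Of 16 genes with a 5' UTR site 11 had a read there, and Hist1h2be, whose listed sites span 37289 nt, had 9 such sites and no read. Without it 15 of 24 sites had a read (62.5%). Sites of a single match in the RefSeq promoter sequence (GRCm38.p6 table, 250 bases before to 50 after the start) were placed by sequence. In Hist1h1c, GTTCCTGA with 9 reads lay at base 19 of the RefSeq transcript, and the cluster's 5' edge lay 11 nt before the start. In Hist1h3h, CACTTT with 7 reads lay at base 3, with the edge 11 nt before it. In Hist1h2ab, CTCTGC and TGCCTT, each with 17 reads, lay at bases 11 and 19, and the edge 14 nt before the start. In Hist1h2bg, TCTACC with 33 reads lay at base 28, and the edge 7 nt before it. In Hist1h2bb the first cluster began 26 nt inside the transcript. Other sites placed as near to the start had no read: base 1 in Hist1h2ae, 10 in Hist1h4j, 13 in Hist2h2ac, 14 in Hist1h2bp (the same GTTCCTGA as in Hist1h1c), 23 in Hist3h2ba and 35 in Hist1h4a. The 5' UTR of Hist1h3b as listed ran past the RefSeq start, and its sites 32 and 74 bases before the start had no read, whereas GCAGCT 7 bases before the start and TCAGTCTA at base 10 had 3 each.

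The crosslink position with the most events fell at the RefSeq start in Hist1h1c and Hist1h3h (3 and 4 events), and 3 nt before it in Hist1h2ab (4 events). In Hist1h2bg the top crosslink was 30 nt inside the transcript (5 events). These positions may be off by 1 nt, since the files do not say how positions are counted. The distance between edge and crosslink is not particular to histones: the top position lay 10 to 14 nt from the 5' edge in 17 of 28 histone clusters with one (60.7%, 40.6 to 78.5) and in 59.7% of others.

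Listed seed matches and control 8mers had overlapping shares in histone genes. Sites of listed seeds had a read in 43 of 170 cases (25.3%, 19.0 to 32.5) and control 8mers in 59 of 222 (26.6%, 20.9 to 32.9). The control 8mers include the stem-loop pair, with a read at 12 of 19 sites of TTTTCAGA and 11 of 17 of CAGAGCCA. These raise the control share, and the share without them was not computed. In other genes the shares were 11.1% and 7.66%. Matches of 7 or 8 bases, the longer sites, had a read in 5 of 39 histone cases (12.8%, 4.30 to 27.4), compared with 12.7% in other genes, and 6mers in 38 of 131 (29.0%), compared with 10.5%. Matched for region and listed expression, the longer sites stood at 1.77 times the expected number (0.592 to 3.78), an interval that includes 1. The 6mers stood at 3.79 times (2.80 to 4.91). Of the 43 clusters 16 overlapped any listed site, 10 a listed seed match and 1 a listed 7mer or 8mer, the ACACAAC of Hist1h3g. Only 29 of the 43 belong to genes in the site table. The other 14 clusters belong to genes outside it, where sites could not be seen. The same counts for clusters of other genes are not given here, so those for histone clusters are not read as few or many.

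Of 48 listed 6mer families, 44 had a histone site and 10 had one in a cluster. The miR-17 family match CACTTT occurred at 9 histone sites, of which 5 had a read (55.6%, with 21.3% in other genes), and 3 lay in clusters, in Hist1h3g (21 reads), Hist1h3h (7) and Hist1h3i (30). The miR-7 match TCTTCC had a read at 3 of 6 sites (50%, with 11.8% in other genes), with 31 in Hist1h4i and 18 in Hist1h3g. The miR-15 match GCTGCT had a read at 3 of 12 (25%, with 16.0% in other genes), the highest in Hist1h4i (19). The miR-148 match GCACTG, with 11 reads in Hist1h2ag, and the miR-96 match TGCCAA, with 12 in Hist1h2bc, lay in 2 clusters and 1 cluster. In the 5' UTRs, the miR-379 match TCTACC had 33 reads in Hist1h2bg and the miR-298 match CTCTGC 17 in Hist1h2ab. Each of these high values comes from 1 or a few genes, and several of the 6mers share a cluster with control 8mers or each other.

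In all, 32 histone sites in 16 genes had at least 5 reads, and 16 of these were control 8mers. Besides those named, the deepest were CAATGCTA in Hist1h4i (33), ACACAAC in Hist1h3g (22), GTAAACCA in Hist1h3e (16), TAGCACCA in Hist1h2bk (15), TTATACAA in Hist1h2ag (11), AACCCT in the same gene (10), and, with 9 each, GACCACCA in Hist1h4j and AACTGGAA and GGAACCCA in Hist1h3b. Of the 32 sites 20 had a PhastCons score under 0.1. In the 5' UTR, the median score was 0.00050 over the 15 sites with a read and 0.0769 over the 18 without. In the 3' UTR it was 0.402 over the 70 with a read and 0.0023 over those without. Outside the stem-loop pair, 10 of 14 3' UTR sites in clusters scored under 0.1 (71.4%), compared with 35.8% of 3' UTR sites in clusters of other genes.

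Genes that make, process and load histones were listed as a setting. All of those in the table reached 1 FPKM except the chaperone Npm2 (0.146 FPKM). Among genes of at least 1 FPKM other than the 35 histone genes, 21.6% had a cluster. Of 30 genes of histone messenger RNA processing and decay in the table, 7 had a cluster (23.3%, 9.93 to 42.3), beside 16.7% of all genes, at a median of 24.5 FPKM, and their sites had a read at 0.961 times the expected number (0.886 to 1.04). They included Ccne1 (3 clusters, 31 reads against 2), which drives entry into S phase, Npat (3 clusters, 26 against 0), the coactivator of histone genes, Ncbp1 (2 clusters, 22 against 1) of the cap-binding complex, and Slbp (1 cluster, 7 against 0), the stem-loop binding protein. Lsm4 (129 FPKM), Srrt (52.2) and Cdk9 (51.1) had none. Replication-independent histones, most of whose messenger RNAs carry poly(A) tails (H2afx is also made in a stem-loop form), had a cluster in 3 of 11 genes (27.3%, 6.02 to 61.0), at a median of 75.4 FPKM. These were H2afx and Cenpa, with 2 clusters each, and H2afj with 1, while H3f3b (403 FPKM), H3f3a (241) and H2afz (159) had none. Their sites had a read at 0.703 times the expected number (0.557 to 0.871). Of 18 histone chaperones 11 had a cluster (61.1%, 35.7 to 82.7), at a median of 54.8 FPKM, led by Supt16h and Anp32e with 3 clusters each, while Hat1, Nap1l4, Asf1b, Atrx and Chaf1a had 2 each. Their sites had a read at 1.17 times the expected number (1.06 to 1.28). The chaperones Nasp (301 FPKM), Ssrp1 (115) and Nap1l1 (80.9) had none.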

How the data were processed

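The authors sequenced 1 tagged and 1 untagged iCLIP library. Per the submitters' processing notes the tools were Bowtie and TopHat, on mm9 and NCBIM37, with no versions or roles. The deposited peak height is a signal counted in whole reads. The authors deposited a text joining tagged reads, the log2 enrichment over untagged and a binomial p. The untagged number was taken as tagged reads plus 1, divided by 2 to the power of that log2 value, minus 1, and the deposited log2 was matched within 0.005 in all 6211 clusters. Site coverage was deposited in rpm, whole multiples of 1.27 rpm within 0.001 in 100% of 1641948 entries, giving 789000 reads. Deposited FPKM is the authors' isoform value, of at least 0.1. PhastCons is a conservation score per the file headers.

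Entries at the same position and strand with the same sequence were counted once, and the expected number came from sites of all other genes in the same region and stratum of 0.5 log2 FPKM. This calculation was tested on simulated data. Folds against 0 use a floor of 3 counts. Coordinates are 1-based mm9. All 45 histone symbols matched 1 RefSeq symbol each. Named are histone genes with a cluster, those with most reads or highest FPKM, the deepest sites, and in each other list the genes with most clusters and those of highest FPKM without one. Members and lists were chosen with earlier results of these data known. Python 3.11.15, pandas 2.3.3 and scipy 1.17.1 were used. Alternatives were a stricter p, other cluster, site and read definitions, other strata and left-out genes.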

Additional observations from a re-analysis of the deposited data

How the results depend on the processing

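No paired analysis was possible because there was 1 library per group, and no replicate could be left out. Of the 43 histone clusters 25 (58.1%) had p under 0.01 in the authors' binomial test, compared with 49.5% of the others. The share of histone genes with a cluster, 60.0%, was 40.0% when the cluster had to overlap the span of the gene's sites and 34.3% with p under 0.01. The share of sites with a read, 26.02%, was 18.6% with at least 2 reads, 12.8% for listed 7mers and 8mers, 32.1% for coding sites, 7.65% for overlap with a cluster and 41.8% without sites over 50 nt past the stem-loop pair, the last chosen after seeing the data. The ratio to the expected number, 3.49, was 1.94 by region alone, 7.78 with at least 2 reads, 4.33 for control 8mers, 1.40 for genes of at least 1 FPKM and 6.08 without the far sites. Among these alternatives no ratio fell below 1, but the interval for genes of at least 1 FPKM, 0.896 to 2.04, included 1. The remaining alternatives gave 38 to 43 clusters, 22.9% to 26.9% of sites, tagged over untagged ratios of 38.5 and 56.5, and ratios to the expected of 3.36 to 3.59. The cause of these shifts was not tested. Depth limits the weakest clusters: 10 of the 43 clusters (23.3%) held 5 reads against 0, the smallest number in the file, compared with 27.7% of the others.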
